A study of Caenorhabditis elegans with 9 samples.

Results

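Loss of the cutting activity of PRG-1 was compared with wild type in small RNA libraries of whole adult Caenorhabditis elegans hermaphrodites, to ask whether piRNAs are kept when the Argonaute that carries them cannot cut its targets. The comparison used the 6 libraries labelled Wild Type or prg-1(Rnase-dead), 3 of each, out of 9 in the series. The other 3, from the prg-1(∆PAZ-domain) mutant, entered only the joint estimate of spread. Each library came from 20 to 30 pooled animals cultured at 25 °C and collected 24 h past the middle of the fourth larval stage. The labels give neither the allele nor the mutated residues of the Rnase-dead animals, nor how many lines were used. The gene prg-1 lies on chromosome I, bases 7585329 to 7588367 of WBcel235, on the minus strand. The tables hold neither a prg-1 transcript level nor its sequence, so the genotype labels could not be checked.

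PRG-1 is the Piwi-clade Argonaute of the worm germline. It binds short piRNAs that begin with U and are transcribed one by one from many small genes, most of them on chromosome IV, and it uses them to recognise germline transcripts. Recognition recruits RNA-dependent RNA polymerases that make secondary siRNAs antisense to the target, and animals without PRG-1 protein lack most piRNAs. An Argonaute with an intact catalytic site can also cut a paired target itself. In Drosophila such cutting feeds a cycle that makes further piRNAs. An entry below is 1 piRNA sequence of the piRNAdb database, sense reads are reads of the piRNA itself, and antisense reads match the opposite strand.

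The 6 libraries held 1561419 to 3121968 genome-mapped reads, 5129 to 20802 sense piRNA reads and 634 to 1650 antisense reads. Wild type replicate 2 stood apart as the library with the fewest reads and the lowest sense piRNA rate. Libraries also differed in the last segment of chromosome I, a stretch of 72434 bases with 4 annotated ribosomal RNA genes (2 copies of rrn-1.1, and rrn-2.1 and rrn-3.1, between bases 15062083 and 15071033 of WBcel235). It took 12.2%, 14.3% and 3.83% of genome-mapped reads in wild type replicates 1, 2 and 3 and 1.64%, 2.62% and 2.55% in RNase-dead. Every RNase-dead library was below every wild-type one, by -1.98 ± 0.64 on the log2 scale (SE; exact two-sided permutation p = 0.1, the smallest that 3 libraries against 3 can give). Of 104 genome segments this one had the lowest difference. Every rate was therefore also computed without its reads in the denominator. Across the other 103 segments the median log2 difference, RNase-dead minus wild type, was 0.31 per genome-mapped read and 0.19 with the segment left out.

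The mean sense piRNA rate was higher in RNase-dead animals than in wild type, by less than the spread between replicates could show. Sense reads per 1000000 genome-mapped reads (RPM) were 5930, 3285 and 4840 in wild type replicates 1, 2 and 3 and 6663, 5653 and 6115 in RNase-dead. The lowest RNase-dead library lay above the wild-type mean of 4685 but below the highest wild-type library, so the groups overlapped. The authors' deposited table gives RNase-dead as 131% of wild type with an SD of 10.8%. That SD equals the RNase-dead SD over the wild-type mean. It leaves out the spread of wild type, whose SD was 28.4% of its mean. Differences of totals on the log2 scale are between means of log2 values, and for the sense rate this came to 0.43 ± 0.26 (SE; exact permutation p = 0.2, n = 3 per group).

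Leaving the ribosomal segment out raised the wild-type rates more than the mutant ones. They became 6754, 3833 and 5033 RPM in wild type and 6774, 5805 and 6275 in RNase-dead, so that wild type replicate 1 and RNase-dead replicate 1 were nearly equal. The mutant mean then came to 121%, with a log2 difference of 0.31 ± 0.24 (SE; exact permutation p = 0.3, n = 3 per group). Without wild type replicate 2 the log2 difference was 0.19 per genome-mapped read and 0.11 with the segment left out, and without wild type replicate 1 it was 0.62 and 0.51. In whole animals, more germ cells and more piRNA per germ cell cannot be told apart.

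Antisense reads at piRNA entries differed little in rate and made up a smaller part of piRNA-matching reads in RNase-dead. Their rates were 555, 406 and 565 RPM in wild type and 515, 514 and 521 in RNase-dead, which lay inside the wild-type range (log2 difference 0.04 ± 0.15 SE; exact permutation p = 1, n = 3 per group). The difference had the opposite sign without wild type replicate 2, at -0.12, and with the ribosomal segment left out of the denominator, at -0.08. As a share of all reads at piRNA entries, which needs no genome denominator, antisense reads made up 8.55%, 11.0% and 10.4% in wild type and 7.17%, 8.34% and 7.86% in RNase-dead. The groups did not overlap, with mean log2 shares apart by -0.36 ± 0.13 (SE; exact permutation p = 0.1, the smallest possible).

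**Figure D1:**
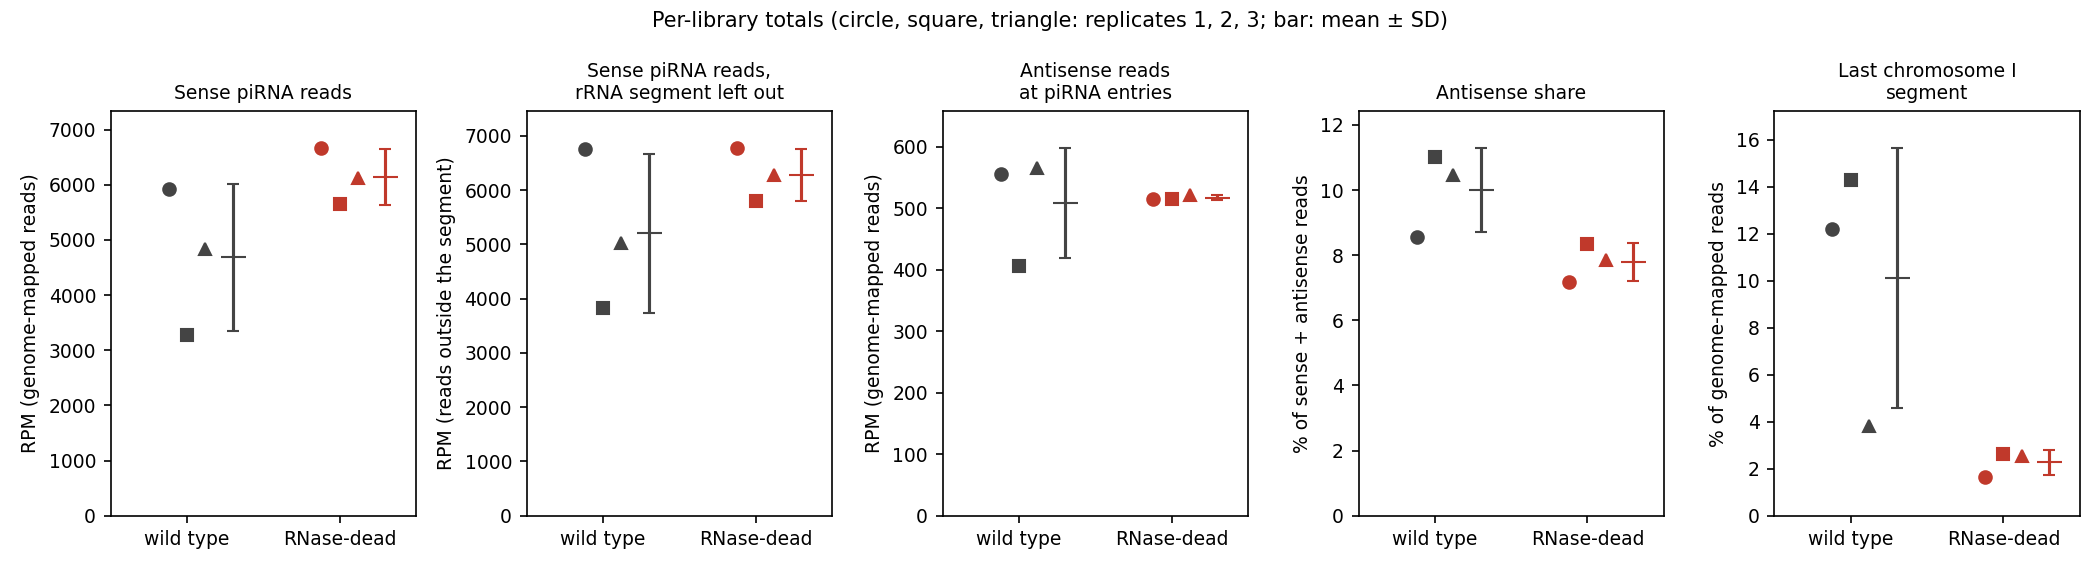
Each panel plots 1 quantity per library for wild type (grey) and RNase-dead (red), with replicates 1, 2 and 3 as circle, square and triangle and the mean ± SD beside them; panels 1 to 3 are in RPM and the last 2 in percent. Sense rates overlapped between the genotypes with either denominator, while the antisense share and the last chromosome I segment did not.

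None of the 10 most abundant piRNAs passed edgeR's test for a change in the fit of all libraries, and their fitted log2 fold changes lay between -0.07 and 0.82. The leading entry, cel-piR-10036, was at 548, 388 and 536 RPM in wild type and 532, 517 and 486 in RNase-dead. Its groups overlapped, and the fitted log2 fold change was 0.06 with a 95% interval of -0.55 to 0.66, so the interval lay within 2-fold in either direction. Second in rank, cel-piR-6101 was at 315, 179 and 263 RPM in wild type and 397, 317 and 358 in RNase-dead, with every mutant library above the wild-type ones, by a narrow gap. With the ribosomal segment left out of the denominator, the groups of cel-piR-6101 overlapped. Next came cel-piR-2077, at 219, 169 and 259 RPM in wild type and 293, 246 and 269 in RNase-dead, with overlap. These 2 had fitted log2 fold changes of 0.50 (interval -0.12 to 1.12) and 0.32 (interval -0.30 to 0.94).

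Among the next ranks, cel-piR-7578 showed a clear gap between the groups. It was at 85.4, 71.7 and 89.0 RPM in wild type and 131, 141 and 154 in RNase-dead, and the fit put it 0.79 ± 0.33 higher on the log2 scale (SE, edgeR FDR 0.284). The groups of cel-piR-6252, at 51.5 ± 11.9 and 89.0 ± 3.17 RPM, and of cel-piR-9316, at 36.3 ± 10.4 and 64.3 ± 9.38, did not overlap either (SD, n = 3). Those of cel-piR-8214, cel-piR-987, cel-piR-238 and cel-piR-8248 overlapped, and cel-piR-8248 had the lowest fitted value of the 10, at -0.07. Under each of 3 scalings to other piRNAs, cel-piR-10036, cel-piR-2077 and cel-piR-238 also had fitted values below 0, again uncalled.

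Of the 10 most abundant entries, edgeR called 0 with either denominator in that fit. Without wild type replicate 1 it called cel-piR-8214 higher with either, at log2 fold changes of 1.25 and 1.15. Before adjustment, edgeR's p was under 0.05 for 4 with higher and 0 with lower values per genome-mapped read, and for 3 and 0 with the segment left out. Over all 1067 entries tested, the same held for 111 higher and 20 lower, and for 94 and 28 with the segment left out. DESeq2 called 1 higher per genome-mapped read, cel-piR-7578, and 0 with the segment left out. In a fit of the 6 libraries with a replicate block, edgeR called cel-piR-7578, cel-piR-6252, cel-piR-8214 and cel-piR-9316 higher per genome-mapped read (edgeR FDR 0.0175 to 0.0282). Of all 930 entries in that fit it called 42 higher and 2 lower. The 10 together made up 25.6%, 30.7% and 29.4% of the sense reads of wild type and 26.7%, 27.8% and 27.3% of those of RNase-dead (exact permutation p = 0.5, n = 3 per group). The RNase-dead shares all lay within the range of the wild-type ones.

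The breadth of the repertoire was compared at equal piRNA depth. After each library was thinned to 5129 sense reads, 1355, 1190 and 1281 entries had a read in wild type and 1255, 1238 and 1226 in RNase-dead, with overlap (exact permutation p = 0.6, n = 3 per group). Entries with at least 2 reads numbered 560 ± 9.81 (SD, n = 3) in wild type and 523 ± 5.79 (SD, n = 3) in RNase-dead, and here every RNase-dead library was lower (exact permutation p = 0.1, the smallest possible). Without thinning, 95.1% of wild-type sense reads fell on entries also read in RNase-dead. For RNase-dead sense reads, 95.2% fell on entries also read in wild type. By entry, 2370 were read in both genotypes, of 3437 read in wild type and 3769 in RNase-dead.

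The tested entries were ranked by level, as the mean of the 2 genotype means, into 5 classes. The summed rate of the 214 most abundant was 3112 ± 818 RPM (SD, n = 3) in wild type and 4265 ± 327 (SD, n = 3) in RNase-dead, 137% of wild type, without overlap between the groups. From the second class to the fifth the RNase-dead mean stood at 125%, 124%, 116% and 140% of wild type. All 5 classes were above wild type in the mean, the exact permutation p ran from 0.1 to 0.7 (n = 3 per group), and the smallest adjusted p over the 5 classes was 0.25. With the ribosomal segment left out the means were 106% to 129% of wild type and the groups of every class overlapped. The tested entries had passed a minimum of raw reads, and RNase-dead held more sense reads (47025 against 33647 in wild type). Entries high in RNase-dead thus passed more easily. The summed rate of the tested entries was 134% of wild type, against 131% for all entries. The part of this choice in the class differences was not tested.

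Few single piRNAs passed the test, and nearly all that did were higher in RNase-dead. The counts of each entry were compared by edgeR's quasi-likelihood method at an FDR of 0.05. Of 1067 entries tested, 23 were called (2.16%), of which 22 were higher in RNase-dead (2.06% of those tested) and 1 lower (0.0937%) per genome-mapped read, with a median log2 fold change over all 1067 of 0.32. With the ribosomal segment left out, 6 were higher (0.562%) and 1 lower (0.0937%), with a median of 0.21, and all 7 were among the 23. That drop was smaller in edgeR's default fit, which called 29 higher and 2 lower per genome-mapped read and 23 higher and 2 lower with the segment left out. The split of 95.7% higher shrank to 76.9% with TMM factors (10 higher, 3 lower), to 58.8% with library sizes from sense piRNA reads (10 higher, 7 lower) and to 75.0% with DESeq2 median-ratio factors (3 higher, 1 lower), where the medians were 0.04, -0.03 and -0.08. These scalings set each piRNA against the others rather than against genome-mapped reads. The 22 entries called higher took 2.26% of wild-type and 6.28% of RNase-dead sense reads, a direction that follows from how they were chosen. Every RNase-dead library was above every wild-type one for 171 of the 1067 entries (16%) and below for 28 (2.62%), or for 139 (13.0%) and 42 (3.94%) with the segment left out. These counts and the medians share the limit given for the classes, as the 1067 were chosen by raw reads.

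**Figure D2:**
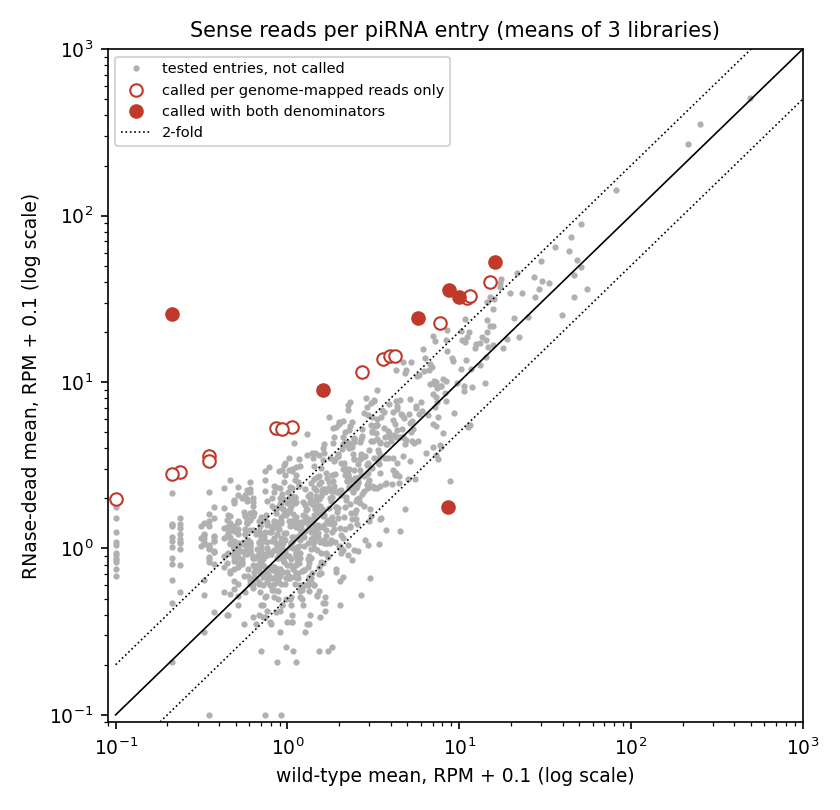
Each point is a tested piRNA entry, with its wild-type mean on the x axis and its RNase-dead mean on the y axis, both in RPM + 0.1 on log scales (n = 3 libraries each); filled and open red circles mark entries called with both denominators and only per genome-mapped read. The 10 most abundant entries lie within 2-fold of the diagonal, while some less abundant ones, such as cel-piR-4274, lie above that range. The entry cel-piR-13631 stands alone, near 0 in wild type and at 25.4 RPM in RNase-dead.

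Among the called entries, 6 were all but missing from wild type, with at most 3 reads in its 3 libraries together. The one with the highest RNase-dead level was cel-piR-13631, with 0, 0 and 1 wild-type reads and 83, 46 and 65 in RNase-dead, or 26.6, 21.7 and 28.0 RPM. Its ratio of pooled rates was 177 (counting interval 31.4 to 7027), and it had 0 reads in the PAZ-domain mutant as well. It was thus read at a steady level in each RNase-dead library and hardly at all in the other 2 genotypes. The other 5 stayed under 4 RPM in the RNase-dead mean. Of these, cel-piR-2985 had 0 wild-type reads against 14, at least 4.26-fold higher if wild type is set to 3 counts over its 3 libraries. For cel-piR-4530 and cel-piR-5331 the wild-type libraries held 1 read against 23 and 20, pooled ratios of 21.0 (counting interval 3.41 to 864) and 18.2 (2.92 to 756). For cel-piR-9151 and cel-piR-12386 they held 2 reads against 27 and 25, ratios of 12.3 (3.10 to 107) and 11.4 (2.84 to 99.3). Of the 22 entries called higher, 8, these 6 among them, had fewer than 10 reads outside RNase-dead and so passed the minimum of 10 reads only through the genotype where they were high. Their calls are therefore given as a description, and 14 calls do not have this limit.

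Another 8 entries had wild-type means of at least 5 RPM and rose to 22.4 to 52.6 RPM. The highest of them, cel-piR-4274, was at 20.6, 10.9 and 16.8 RPM in wild type and 48.7, 52.7 and 56.3 in RNase-dead (log2 fold change 1.69 ± 0.38 SE, edgeR FDR 0.00286). With a lower level, cel-piR-11525 was at 13.6, 5.12 and 7.19 RPM against 37.5, 41.0 and 28.4 (log2 fold change 2.01 ± 0.41 SE, edgeR FDR 5.09e-04). In cel-piR-715 RNase-dead replicate 3 was far above the others, at 6.60, 2.56 and 7.87 RPM against 17.0, 18.4 and 37.4 (log2 fold change 2.02 ± 0.45 SE, edgeR FDR 0.00251). Groups were fully apart for all of these, and also for cel-piR-7573, with 9.93 ± 6.08 against 32.1 ± 4.65 RPM (SD, n = 3; log2 fold change 1.68). These 4 were called with either denominator. The remaining 4, cel-piR-5727, cel-piR-6985, cel-piR-3230 and cel-piR-5579, had log2 fold changes of 1.51, 1.48, 1.36 and 1.52 per genome-mapped read. With the segment left out they stood at 1.40, 1.38, 1.24 and 1.39 and were no longer called. Over all 16 calls lost in this way the log2 fold change moved by -0.12 to -0.04, and the edgeR FDR became 0.0562 to 0.0781.

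The last 8 of the entries called higher had wild-type means between 0.755 and 4.13 RPM and reached 5.10 to 14.3 in RNase-dead. They were cel-piR-9898, cel-piR-5151, cel-piR-12731, cel-piR-3035, cel-piR-3008, cel-piR-10787, cel-piR-2016 and cel-piR-9464, with log2 fold changes of 1.75 to 2.56. The highest was that of cel-piR-10787. It and cel-piR-9464 each had 6 wild-type reads, with 1 and 3 in the PAZ-domain mutant. Both thus passed the minimum of 10 reads only through RNase-dead, and their calls are a description. In this group cel-piR-9898 alone was called with both denominators, although its libraries overlapped, at 2.47, 0 and 2.05 RPM against 9.29, 1.88 and 15.5. It was the only one of the 22 entries with overlapping groups. Wild type replicate 2 was below both other wild-type libraries for 15 of the 22 entries, and it was the lowest for 83 of the 105 well-measured entries described below.

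Most of these calls were lost when some library was left out. With each library left out in turn, the calls of cel-piR-13631 and cel-piR-11525 held in 6 of 6 fits, those of cel-piR-715 and cel-piR-4274 were lost without RNase-dead replicate 3, and the other 18 held in at most 3. The log2 fold change was then 1.57 for cel-piR-715 and 1.64 for cel-piR-4274. The call of cel-piR-13631 remains a description, since that entry passed the minimum of 10 reads only through RNase-dead. Over the 88 fits with a lost call the log2 fold change was above 0 in 88, and it differed from the value with all libraries by -0.04 in the median. That sign was largely set by the choice of entries and says nothing further. They were called higher in the same libraries, and in 21 of the 22 the groups did not overlap. The 23 calls became 46, 9 and 6 when wild type replicate 1, 2 or 3 was left out, and 4, 8 and 2 when it was RNase-dead replicate 1, 2 or 3.

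The entry called lower was cel-piR-8767. It was at 12.8, 8.97 and 3.77 RPM in wild type, and its RNase-dead libraries held 0, 3.77 and 1.29 RPM, so wild type replicate 3 and RNase-dead replicate 2 met. The log2 fold change was -2.41 ± 0.63 (SE, edgeR FDR 0.0230) and -2.54 with the segment left out (edgeR FDR 0.0106). The call was lost without wild type replicate 1 or RNase-dead replicate 1 or 3. Its antisense reads numbered 17 in wild type and 30 in RNase-dead. Besides this entry only cel-piR-5579 among the 23 had an antisense read in these libraries.

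**Figure D3:**
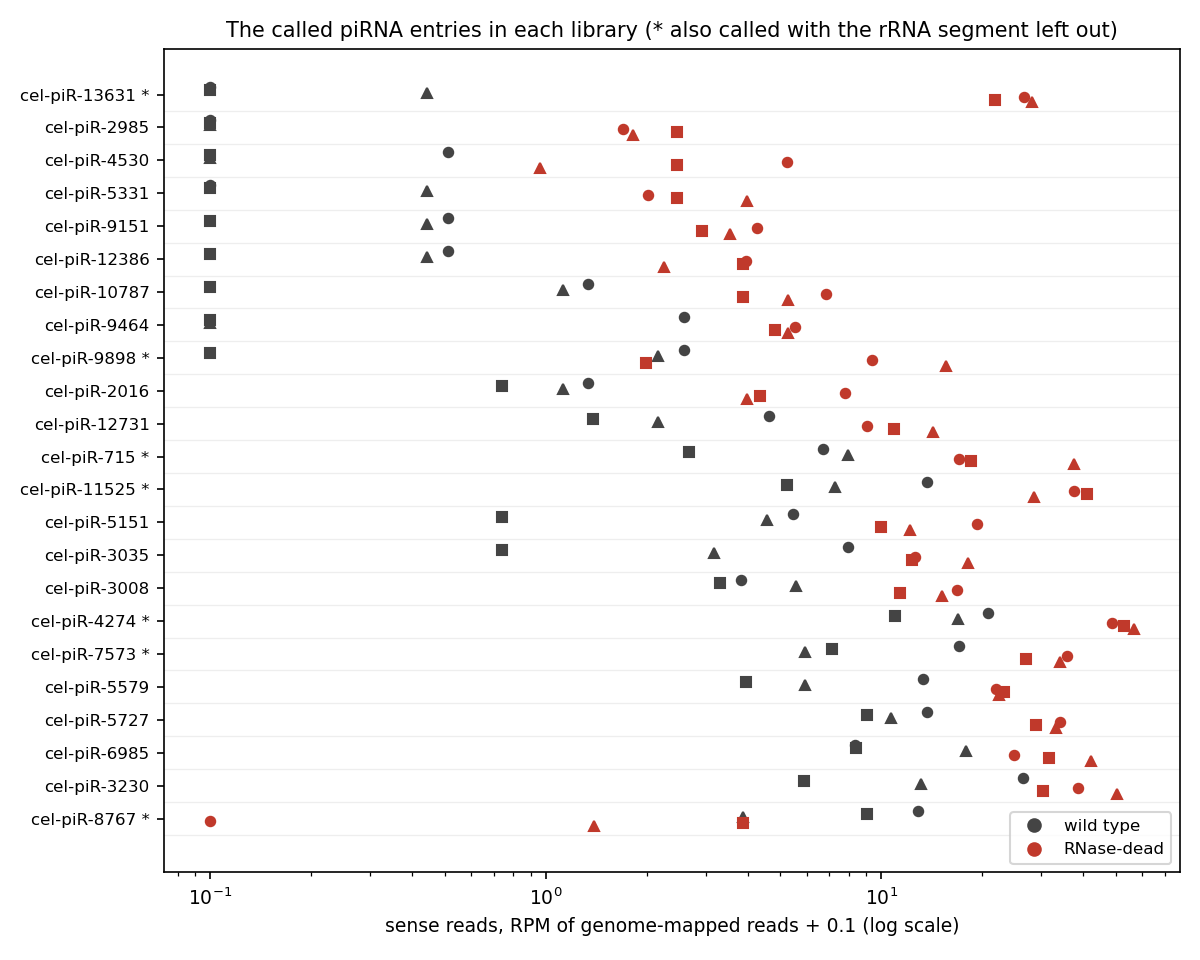
Rows are the 23 called entries, ordered by log2 fold change, and the x axis gives sense reads in RPM + 0.1 on a log scale for wild type (grey) and RNase-dead (red), with replicates 1, 2 and 3 as circle, square and triangle. Groups are apart in 21 of the 22 entries called higher and meet in cel-piR-9898 and in cel-piR-8767, the entry called lower.

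How far a single piRNA could have moved was bounded for the 105 entries that averaged 20 or more counts over the 6 libraries. The fitted level was within 2-fold of wild type for 73 of them, more than 2-fold higher for 30 and more than 2-fold lower for 2, against 716, 257 and 94 of all 1067 tested. The 95% interval lay wholly within 2-fold for 16 of the 105, wholly above 0 for 40 and wholly below 0 for 2. With the ribosomal segment left out these numbers were 19, 36 and 4. Of all 1067 tested, the interval lay wholly within 2-fold for 17, or for 21 with the segment left out. Over the same 1067, edgeR's unadjusted p was under 0.05 for 111 higher and 20 lower, or for 94 and 28 with the segment left out. Most of the 105 entries thus had an interval that reached past 2-fold, among them the 30 and the 2 whose fitted value did. Their median change was 0.59 on the log2 scale per genome-mapped read and 0.47 otherwise. The 105 were chosen by raw counts, and RNase-dead held more sense reads (47025 against 33647 in wild type). Entries high in RNase-dead thus passed more easily, such as cel-piR-13631 with 1 wild-type read against 194. The part of this choice in the lean to higher values was not tested.

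**Figure D4:**
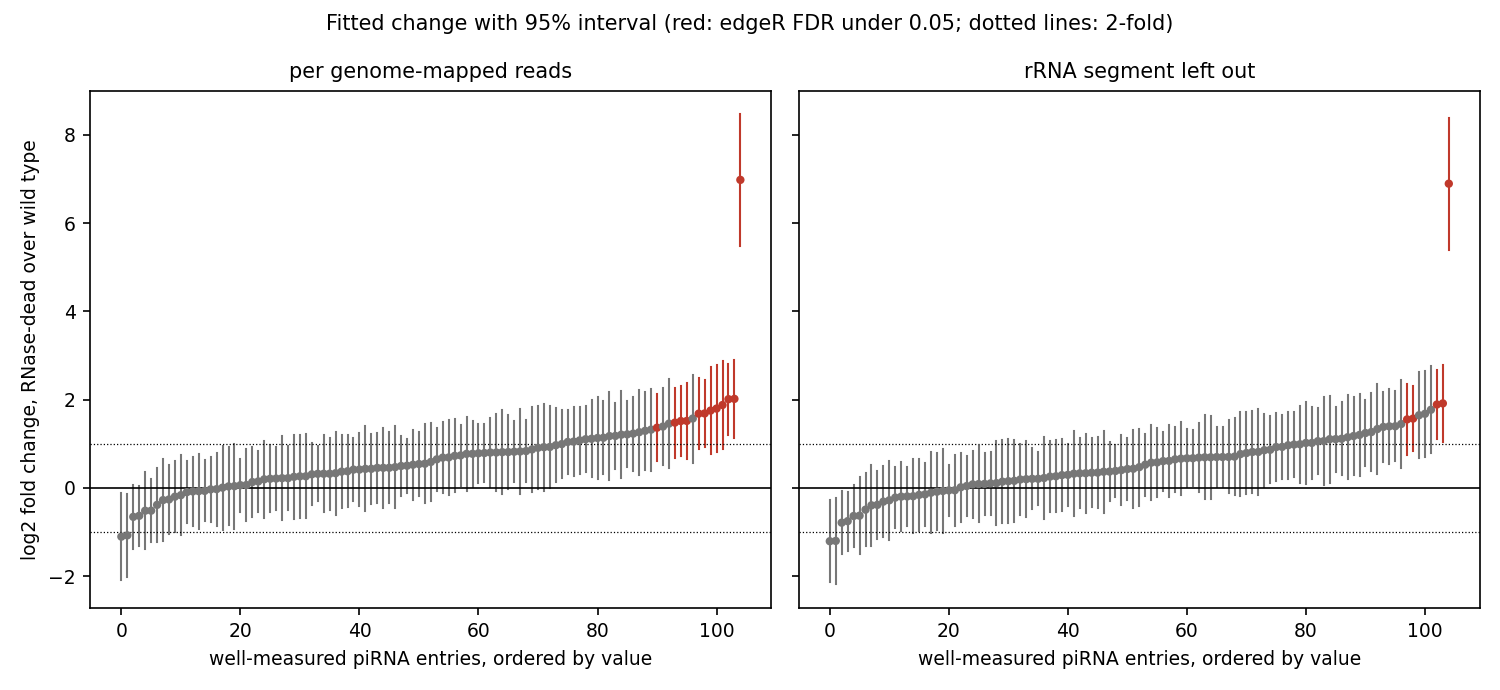
Points are the fitted log2 fold changes of the 105 well-measured entries, in order, with 95% intervals as lines; the left panel is per genome-mapped read and the right one leaves the ribosomal segment out. Red marks entries with edgeR FDR under 0.05 (12 on the left, 5 on the right), and dotted lines mark 2-fold.

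RNase-dead libraries varied less among themselves than wild-type ones, a description with no test. The SD of an entry between libraries was 18.7% of its mean in RNase-dead and 35.3% in wild type in the median over the 105 entries, and it was larger in wild type for 82 of them. As a share of sense reads, which takes out differences in the piRNA total, the medians were 15.8% and 25.2%. Shares do not take out counting error, which is larger at lower counts, and wild type held 33647 sense reads against 47025 in RNase-dead. The part of counting error in the difference of spread was not tested. Across the 105 entries Pearson's r of log2(RPM + 1) was 0.91 to 0.93 between RNase-dead libraries and 0.86 to 0.91 between wild-type libraries. Between genotypes it was 0.71 to 0.78 over 9 pairs, or 0.73 to 0.83 without cel-piR-13631, and Spearman's rho gave the same order (0.86 to 0.89, 0.75 to 0.84 and 0.58 to 0.72). Each pair of libraries of 1 genotype was thus more alike than any pair across genotypes. These correlations are across entries, which are not independent replicates and share library and depth, and they are given as a description. Nothing in the labels separates genotype from the day or batch of library preparation, so these cannot be told apart.

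**Figure D5:**
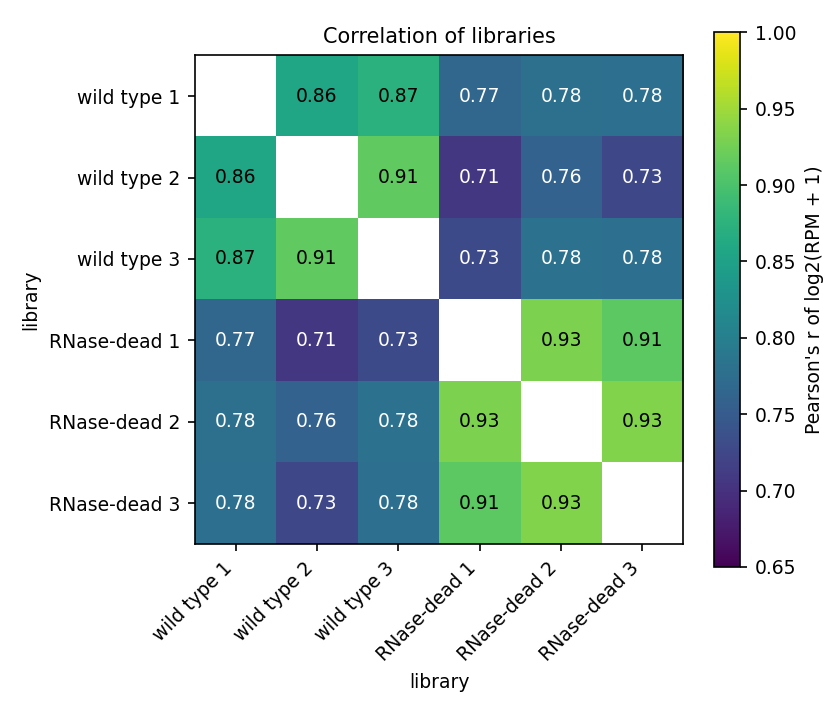
Each cell gives Pearson's r of log2(RPM + 1) over 105 well-measured entries for a pair of libraries named on the axes. The 9 pairs across genotypes, at 0.71 to 0.78, are below all pairs within a genotype, at 0.86 to 0.93.

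Antisense reads were tested per entry in the same way. Of 127 entries tested, 118 had more antisense than sense reads in these 6 libraries, so they were mostly other entries than the abundant piRNAs. By edgeR 0 were called higher in RNase-dead and 1 lower (0.787% of those tested), while 3 in each direction had an unadjusted p under 0.05, and DESeq2 with the same denominator called 0. Every RNase-dead library was above every wild-type one for 7 entries (5.51%) and below for 6 (4.72%). The median log2 fold change was 0.24.

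The entry called lower in antisense was cel-piR-14696. It was at 3.71, 30.7 and 9.93 RPM in wild type and 1.60, 2.82 and 0.430 in RNase-dead, without overlap (log2 fold change -3.12 ± 0.60 SE, edgeR FDR 3.16e-05). Wild type replicate 2 alone held 48 of its 86 wild-type reads, and without that library the log2 fold change was -2.08 and the call was lost. DESeq2 with the same denominator did not call it.

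The most abundant antisense entry, cel-piR-1599, was at 70.9, 51.9 and 70.5 RPM in wild type and 33.3, 39.5 and 43.0 in RNase-dead. These groups did not overlap, but the log2 fold change of -0.74 ± 0.35 (SE) was not called (edgeR FDR 0.847). It had 0 sense reads in all 6 libraries. Of the other leading antisense entries, cel-piR-1259 was at 32.2 ± 9.20 and 21.6 ± 3.58 RPM and cel-piR-10136 at 9.35 ± 1.82 and 15.9 ± 1.53 (SD, n = 3), each without overlap and not called. The groups of cel-piR-1090 and cel-piR-6514 overlapped. The 5 together took 28.2% of wild-type and 21.3% of RNase-dead antisense reads.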

How the data were processed

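Per the labels' protocols, mirVana-purified small RNA of whole hermaphrodites was given acid pyrophosphatase, which opens 5′ triphosphate ends to cloning, before TruSeq small RNA library preparation. Secondary siRNAs, which bear such ends, can therefore enter the denominator. The growth text also uses the word male, and the titles were followed. FastQC 0.12.0 and cutadapt 3.7 were used, per the submitters' processing notes. For the aligner, the genome build and reads with several matches, details were not given in the sources used here, so near-identical entries may share reads. The deposited values were raw counts per piRNAdb 1.7.6 entry and strand and raw counts per genome segment, per the file headers. The rows of totals were left out of the tests. The deposited table of totals was a mixed sheet by the authors (other units: fold and percent of wild type), checked against the counts. Entries carry no sequence or coordinates, so none was placed. Segments were assigned to chromosomes by order and length, and genes came from Ensembl release 115 (WBcel235).

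Rates were divided by genome-mapped reads, or by those outside the last chromosome I segment. Totals were compared by exact two-sided permutation tests of mean log2 values, entries with edgeR 4.0.16 (glmQLFit with legacy=TRUE, library sizes set to the denominator, all 9 libraries in 1 fit, Benjamini-Hochberg adjustment), for entries with at least 10 reads over 9 libraries and a read in at least 3. These 1067 entries held 87.2% of wild-type and 89.2% of RNase-dead sense reads. The SE was the absolute log2 fold change over the square root of F, and it rests on a spread pooled over entries. Thinning used 100 draws. DESeq2 1.42.0 was an alternative. Fits were tested on simulated data, where most 2-fold and most 4-fold changes of single entries were missed, and many 8-fold ones as well. Few calls therefore do not mean few large changes. The floor of 3 counts equalled 0.961 to 1.92 RPM in the 6 libraries. Ratios of pooled rates have 95% Clopper-Pearson intervals. These and the floors reflect counting error alone, as PCR copies could not be removed. Separate cultures are not stated for the libraries of a group, so the spread behind each p-value may be technical.

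Named entries were the 10 with the highest mean of the 2 genotype means, all sense and antisense entries called, and the 5 most abundant antisense entries. The members and lists were chosen with earlier results of these data known. The fit with legacy=TRUE was chosen to match an earlier treatment of these counts, and the default fit was added as an alternative after the data were seen. Alternatives were other denominators, normalizations, filters and tools, a fit of 6 libraries, a replicate block, and leaving out each library.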

Additional observations from a re-analysis of the deposited data

How the results depend on the processing

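No alternative could bring a total past 0.05, since 3 libraries against 3 cannot go below 0.1, so only directions are compared. Totals kept their direction in every alternative run except the following. The log2 difference of antisense rates ran from -0.12, without wild type replicate 2, to 0.12 when 1 library was left out, and was -0.083 with the ribosomal segment left out. That of the number of entries at equal piRNA reads ran from -0.088 to 0.0061, the latter without wild type replicate 1, and was 0.27 without thinning, and that of the share of the 50 most abundant entries was 0.028. All classes of level stayed higher in RNase-dead, also with 10 classes.

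The count of sense calls per genome-mapped read, 23, ran from 2 to 46 when 1 library was left out, and was 5 without a filter on low counts, 13 with TMM factors, 4 with DESeq2 median-ratio factors, 23 with DESeq2 on genome-mapped size factors (16 of them shared) and 31 with the default edgeR fit. With the ribosomal segment left out, the 7 calls ran from 2 to 43 when 1 library was left out, and were 22 in a fit of 6 libraries, 16 with DESeq2, 17 with a minimum of 50 reads and 25 with the default edgeR fit (23 higher, 2 lower, with all 7 among them). So the drop from 23 to 7 was smaller, from 31 to 25, in that fit, and the cause was not tested. The antisense call was lost, leaving 0, without wild type replicate 2, with the replicate block and with DESeq2 on genome-mapped size factors.

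Same-numbered libraries shared only a number: their deviations correlated at 0.10, 0.08 and 0.06 over 1067 entries, each library highest with its own number, a hint from the data and not the design. With the replicate block edgeR called 44 sense entries, against 29 in the same 6 libraries without it, 28 with the segment left out and 0 antisense entries. Among its sense calls were cel-piR-7578, cel-piR-6252, cel-piR-8214 and cel-piR-9316 (log2 fold changes 0.79 to 0.84, edgeR FDR 0.0175 to 0.0282), uncalled without it. For the totals, the block gave an exact sign-flip permutation p of 0.25 for sense rates, the smallest that 3 pairs allow.

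Under the alternatives for single named entries, 682 values kept direction and side of the threshold, 176 lost the call, 77 gained it and 20, none of them called, changed sign. With TMM factors, then piRNA-based library sizes, then DESeq2's median-ratio scaling, the log2 fold change was -0.25, -0.36 and -0.39 for cel-piR-10036, -0.0049, -0.11 and -0.15 for cel-piR-2077, and -0.19, -0.29 and -0.33 for cel-piR-238. When 1 library was left out it ran from -0.083 to 0.15 for cel-piR-10036, from -0.15 to 0.45 for cel-piR-238 and from -0.19 to 0.17 for cel-piR-8248, and, with the segment left out too, from -0.17 to 0.050, from -0.26 to 0.28 and from -0.33 to 0.071. In antisense it ran from -0.42 to 0.046 for cel-piR-1090 and from -0.23 to 0.52 for cel-piR-6514. Depth limits all entries near the floor of 3 counts.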

Other observations

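Entries read in 1 genotype and nearly missing from the other were counted without a test, by a rule set after the data were seen. With at least 10 reads in RNase-dead and at most 1 in wild type there were 11 entries, and with the reverse there were 2, cel-piR-10204 (13 reads against 1) and cel-piR-13801 (11 against 1). The genotypes differed in depth, with 47025 sense reads in RNase-dead and 33647 in wild type, and the part of that difference in these numbers was not tested. Beside cel-piR-13631, cel-piR-2985, cel-piR-4530 and cel-piR-5331, the 11 included cel-piR-11287 with 0 reads against 13 and cel-piR-9352 with 0 against 11. In the PAZ-domain mutant cel-piR-15905, with 1 wild-type read and 11 in RNase-dead, had 18 reads.

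Entries too scarce to be tested summed to 599 ± 199 RPM (SD, n = 3) in wild type and 665 ± 59.4 (SD, n = 3) in RNase-dead, with an exact permutation p of 0.7.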
